A study of Mus musculus with 6 samples.

Results

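The skeletal muscle fibre genes described here are 40 of the 23940 genes of an expression table from healing mouse skin. They were taken by symbol, for their known role in the contractile fibre, and were grouped as 13 fast fibre forms, 8 slow fibre forms, 10 genes of the filament and Z-disc, 3 of calcium release and 6 of energy supply. Female C3H mice (C3Hf/Kam in the methods), 8 to 10 weeks old, received a full-thickness incision in the shaved dorsal skin. The wound was treated topically with vemurafenib, a BRAF inhibitor (2 mg every other day), or with its DMSO and PBS vehicle, which the sample labels call no treatment. Tissue around the wound was taken on days 2, 6 and 14, and poly(A) RNA was sequenced, with 1 library listed for each arm and day, 6 in all. How many mice went into a library was not given in the sources used here.

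Skeletal muscle fibres contract when myosin heads pull on actin filaments, and troponin on the actin filament lets them do so once calcium leaves the sarcoplasmic reticulum. Fast and slow fibres use different genes for most of these proteins. The gene in use points to the fibre type, though fast fibres or embryonic muscle also express some of the slow forms. Fibres that are being rebuilt after injury pass through embryonic and neonatal forms first. In the mouse, the dorsal skin is backed by a thin sheet of skeletal muscle, the panniculus carnosus, which a full-thickness incision cuts.

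Each arm and day has 1 listed sample with 1 column of values, called a library here. A difference between arms on the same day therefore cannot be set against replicate error, and ratios between arms stand here as descriptions. The unit throughout is FPKM, the fragments of a gene divided by transcript length and by the mapped fragments of the library, so that genes can be set side by side. FPKM carry no read number, and the depth behind them is unknown. Ratios and folds between libraries were taken after adding 0.1 FPKM, over the 13392 genes whose mean reached 1 FPKM, and a gene is counted as changed between libraries at a ratio of at least 2-fold. The filter kept 37 of the 40 muscle genes and left out the slow myosin genes Myh7, Myl2 and Myl3. Values with more than 6 digits, as averaging 2 values would give, make up 50.3% to 58.1% of 4 columns, whereas vehicle day 14 and vemurafenib day 2 look like single values. Whether the 4 columns pool libraries was not stated in the sources used here. If they do, the arms on days 2 and 14 each set a single value against an average, and all columns were still weighted alike. The median log2 ratio of vemurafenib to vehicle over all tested genes was 0 on day 2, 0.04 on day 6 and -0.12 on day 14.

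Promoters of 6 of the genes are shown because the results turn on them: the fast fibre genes Myh4 and Mylpf and the filament gene Acta1, which were lower on each later day, and the slow fibre genes Tnni1, Tnnc1 and Casq2, which were highest on day 6. Each is the 250 bases before the RefSeq start of the gene (GRCm38.p6), written 5′ to 3′ on the strand of the gene. Capitals mark TATAAA, the E-box CAGCTG that myogenic bHLH factors can bind, the MEF2 consensus and the CArG box of serum response factor, on either strand. In Myh4, the MEF2 match overlaps a TATAAA match on the other strand.
Myh4, chr11:67237562-67237811, plus strand: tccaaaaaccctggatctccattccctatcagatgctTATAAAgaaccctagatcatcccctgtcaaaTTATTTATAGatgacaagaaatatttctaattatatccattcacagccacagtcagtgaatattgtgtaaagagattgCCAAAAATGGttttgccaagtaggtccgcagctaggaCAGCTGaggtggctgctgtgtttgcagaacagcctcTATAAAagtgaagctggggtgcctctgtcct
Mylpf, chr7:127211358-127211607, plus strand: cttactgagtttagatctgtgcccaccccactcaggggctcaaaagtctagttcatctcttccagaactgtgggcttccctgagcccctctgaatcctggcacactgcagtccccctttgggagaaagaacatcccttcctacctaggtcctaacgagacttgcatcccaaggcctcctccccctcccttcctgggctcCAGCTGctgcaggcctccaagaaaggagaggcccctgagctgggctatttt
Acta1, chr8:123894776-123895025, minus strand: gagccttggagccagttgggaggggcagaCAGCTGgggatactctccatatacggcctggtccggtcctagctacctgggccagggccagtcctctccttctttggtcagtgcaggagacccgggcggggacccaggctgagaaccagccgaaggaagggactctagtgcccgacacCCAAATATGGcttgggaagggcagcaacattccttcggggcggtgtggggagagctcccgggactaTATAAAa
Tnni1, chr1:135799171-135799420, plus strand: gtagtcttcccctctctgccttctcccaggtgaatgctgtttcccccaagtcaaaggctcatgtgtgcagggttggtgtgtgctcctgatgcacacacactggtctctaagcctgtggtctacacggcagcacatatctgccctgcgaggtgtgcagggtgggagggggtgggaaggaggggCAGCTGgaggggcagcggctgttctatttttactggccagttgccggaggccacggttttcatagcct
Tnnc1, chr14:31208062-31208311, plus strand: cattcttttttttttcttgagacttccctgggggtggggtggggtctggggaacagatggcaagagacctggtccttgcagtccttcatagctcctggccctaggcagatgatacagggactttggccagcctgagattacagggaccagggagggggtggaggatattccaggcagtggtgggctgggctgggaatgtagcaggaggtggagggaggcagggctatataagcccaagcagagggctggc
Casq2, chr3:102086165-102086414, plus strand: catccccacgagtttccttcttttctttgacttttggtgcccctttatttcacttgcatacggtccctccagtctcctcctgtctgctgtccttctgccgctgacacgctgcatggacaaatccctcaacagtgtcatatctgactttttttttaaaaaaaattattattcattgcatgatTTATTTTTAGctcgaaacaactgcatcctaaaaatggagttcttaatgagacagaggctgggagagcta

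RefSeq promoters were found for 31 of the 40 genes, and 9 had no entry in the table. CAGCTG stood in the 250 bases of 15 of the 31 genes (48.4%), against 14.7% of 27025 genes. The MEF2 consensus stood in 6 (19.4%, against 3.42%), the CArG box in 3 (9.68%, against 1.62%) and TATAAA in 6 (19.4%, against 14.3%). A match is a run of letters only, and no factor was measured at these sites.

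The 40 genes made up a shrinking part of the RNA in the wound samples. Their summed FPKM was 3.63% of the library total on day 2, 0.899% on day 6 and 0.423% on day 14 with vehicle, and 4.24%, 2.49% and 1.12% with vemurafenib. In FPKM, the sum was 1.02-fold higher with vemurafenib on day 2, 2.15-fold on day 6 and 2.90-fold on day 14. As a share of the library total, it was 1.17-fold, 2.77-fold and 2.64-fold higher, so that which of days 6 and 14 had the wider gap depended on the scaling. In bulk skin, fewer muscle fibres in a sample and less of these RNAs per fibre cannot be told apart. The study describes the sequenced tissue as skin of full thickness, and its size was not given in the sources used here.

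**Figure D1:**
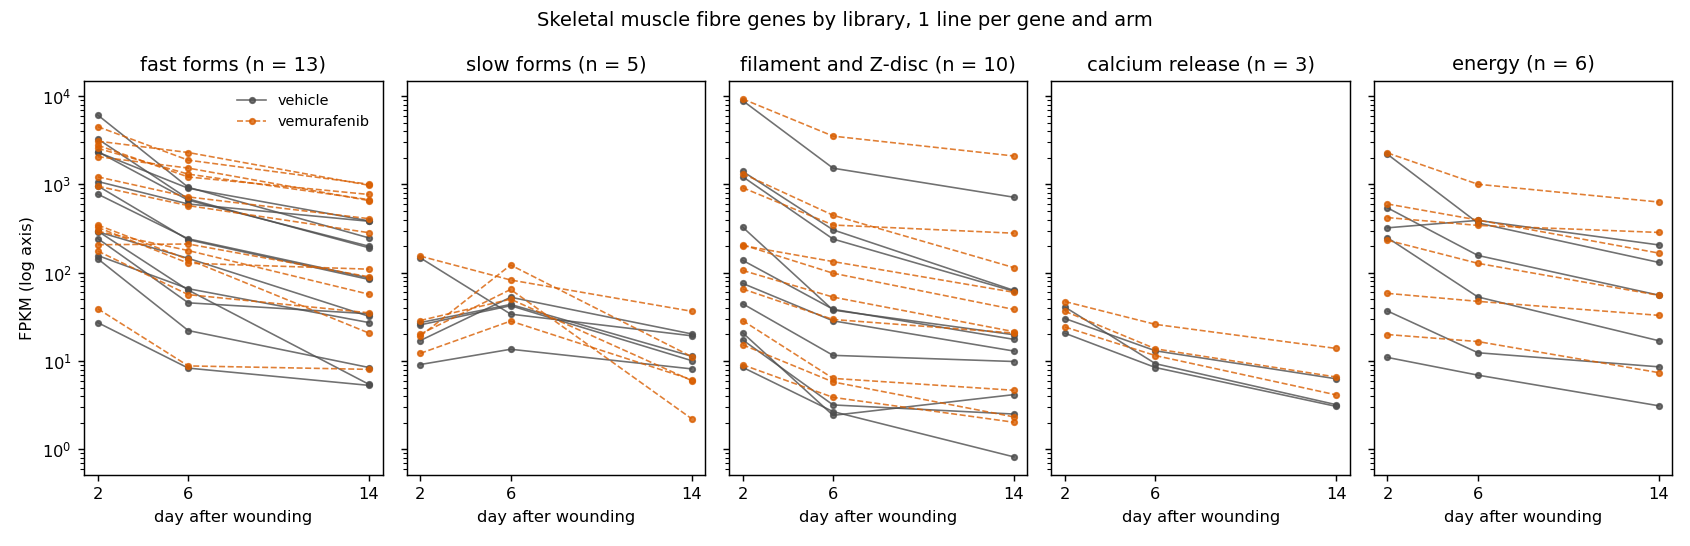
FPKM on a log axis against day after wounding for the 37 muscle genes past the filter, 1 panel per role, 1 line per gene and arm (solid grey for vehicle, dashed orange for vemurafenib), each point 1 library. Most lines go down from day 2 to day 14, and 4 of the 5 slow forms peak on day 6 in both arms.

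Among the fast forms, the 3 troponin genes were abundant, and all 3 were lower on each later day. Tnnc2, fast troponin C, which binds the calcium, was at 6091, 927 and 248 FPKM on days 2, 6 and 14 with vehicle and at 4499, 1881 and 1004 FPKM with vemurafenib. Tnni2, fast troponin I, the inhibitory subunit, was at 3264, 685 and 191 FPKM with vehicle and at 2773, 1213 and 768 FPKM with vemurafenib. Tnnt3, fast troponin T, which ties the complex to tropomyosin, was at 2345, 662 and 199 FPKM with vehicle and at 2558, 1306 and 672 FPKM with vemurafenib. The vemurafenib library was the higher of the pair for all 3 on days 6 and 14, and by day 14 the ratios had reached 4.05-fold for Tnnc2, 4.01-fold for Tnni2 and 3.37-fold for Tnnt3. On day 2 Tnnc2 and Tnni2 stood instead at 0.74 and 0.85 of the vehicle level. Tnnc2 overlaps Ube2c on the opposite strand in the mm9 annotation, and the strand of the libraries was not given in the sources used here.

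The myosin genes followed the same course. Mylpf, the fast regulatory light chain, was at 2316, 904 and 386 FPKM with vehicle and at 3087, 2295 and 976 FPKM with vemurafenib. Myl1, the fast essential light chain, was at 1078, 600 and 382 FPKM with vehicle and at 2058, 1529 and 655 FPKM with vemurafenib. Myl1 was the fast form that differed most between the arms on day 2, at 1.91-fold, below the 2-fold limit.

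The fast heavy chains lie side by side on chromosome 11 (mm9, Myh2 at 66984529-67011019, Myh1 at 67013554-67038078 and Myh4 at 67051314-67073948) and are near-identical in sequence, so that reads could be split between them and their separate values are uncertain. Myh4, the heavy chain of the fastest (IIb) fibres, was at 295, 63.5 and 5.44 FPKM with vehicle and at 346, 141 and 20.7 FPKM with vemurafenib. Myh1, the heavy chain of IIx fibres, was at 244, 45.6 and 34.3 FPKM with vehicle and at 326, 128 and 110 FPKM with vemurafenib. Myh2, the heavy chain of IIa fibres, was at 27.2, 8.32 and 5.30 FPKM with vehicle and at 39.1, 8.81 and 8.05 FPKM with vemurafenib. Myh4 was the furthest apart of all 37 genes between days 2 and 14, being 53.4-fold lower with vehicle and 16.6-fold lower with vemurafenib. The order of the heavy chains turned over in both arms: Myh1 stood at 0.82, 0.72 and 6.30 times the level of Myh4 on days 2, 6 and 14 with vehicle, and at 0.94, 0.91 and 5.29 times with vemurafenib.

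Of the remaining fast forms, Pvalb, parvalbumin, a calcium buffer of fast fibres, was at 775, 242 and 87.1 FPKM with vehicle and at 1217, 721 and 409 FPKM with vemurafenib. Atp2a1, the calcium pump SERCA1 that refills the sarcoplasmic reticulum, was at 960, 236 and 83.8 FPKM with vehicle and at 953, 575 and 284 FPKM with vemurafenib. Casq1, fast calsequestrin, which stores calcium in the reticulum, was at 156, 65.9 and 27.2 FPKM with vehicle and at 207, 211 and 89.8 FPKM with vemurafenib. Casq1 was the single fast form that was not lower on day 6 than on day 2 in the vemurafenib libraries. Mybpc2, fast myosin-binding protein C, was at 144, 22.1 and 8.44 FPKM with vehicle and at 176, 56.4 and 35.1 FPKM with vemurafenib. Actn3, the Z-disc actinin of fast fibres, was at 291, 145 and 32.1 FPKM with vehicle and at 294, 178 and 57.0 FPKM with vemurafenib. Actn3 and Myh2 were the fast forms closest between the arms on day 6, at 1.22-fold and 1.06-fold.

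The slow forms behaved otherwise. Tnni1, slow troponin I, which embryonic skeletal muscle also expresses, was at 17.0, 52.7 and 20.3 FPKM on days 2, 6 and 14 with vehicle and at 19.1, 122 and 11.2 FPKM with vemurafenib. Tnnt1, slow troponin T, was at 25.7, 42.3 and 10.1 FPKM with vehicle and at 28.8, 50.2 and 6.02 FPKM with vemurafenib. Both were highest on day 6 in each arm, when every fast form, apart from Casq1 with vemurafenib, was below its day 2 level. Tnnc1, troponin C of slow and heart muscle, was at 27.2, 43.7 and 11.3 FPKM with vehicle and at 20.2, 64.6 and 2.23 FPKM with vemurafenib. Casq2, calsequestrin of slow and heart muscle, was at 9.13, 13.6 and 8.15 FPKM with vehicle and at 12.2, 28.4 and 6.17 FPKM with vemurafenib. On day 14 these 4 genes were all lower in the vemurafenib library, by 1.32-fold for Casq2, 1.67-fold for Tnnt1, 1.80-fold for Tnni1 and 4.91-fold for Tnnc1, and Tnnc1 was the only 1 of the 37 genes at least 2-fold lower in that pair (7.66% of all tested genes were). Tnnc1 has overlapping entries in the mm9 annotation and overlaps Nisch on the opposite strand, so that its value is uncertain.

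Mybpc1, slow myosin-binding protein C, which fast fibres also express, kept to the course of the fast forms, at 147, 34.0 and 19.3 FPKM with vehicle and at 154, 82.7 and 36.6 FPKM with vemurafenib. The slow myosins were nearly absent. Myh7, the slow heavy chain, did not exceed 0.0209 FPKM and is listed at 0 in both day 14 libraries. Myl2, the slow regulatory light chain, was at 1.14, 0.432 and 0 FPKM with vehicle and at 1.08, 0.531 and 0.121 FPKM with vemurafenib, and Myl3, the slow essential light chain, did not exceed 0.431 FPKM. Slow troponins and slow calsequestrin were thus measured on day 6 in samples with next to no slow myosin.

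**Figure D2:**
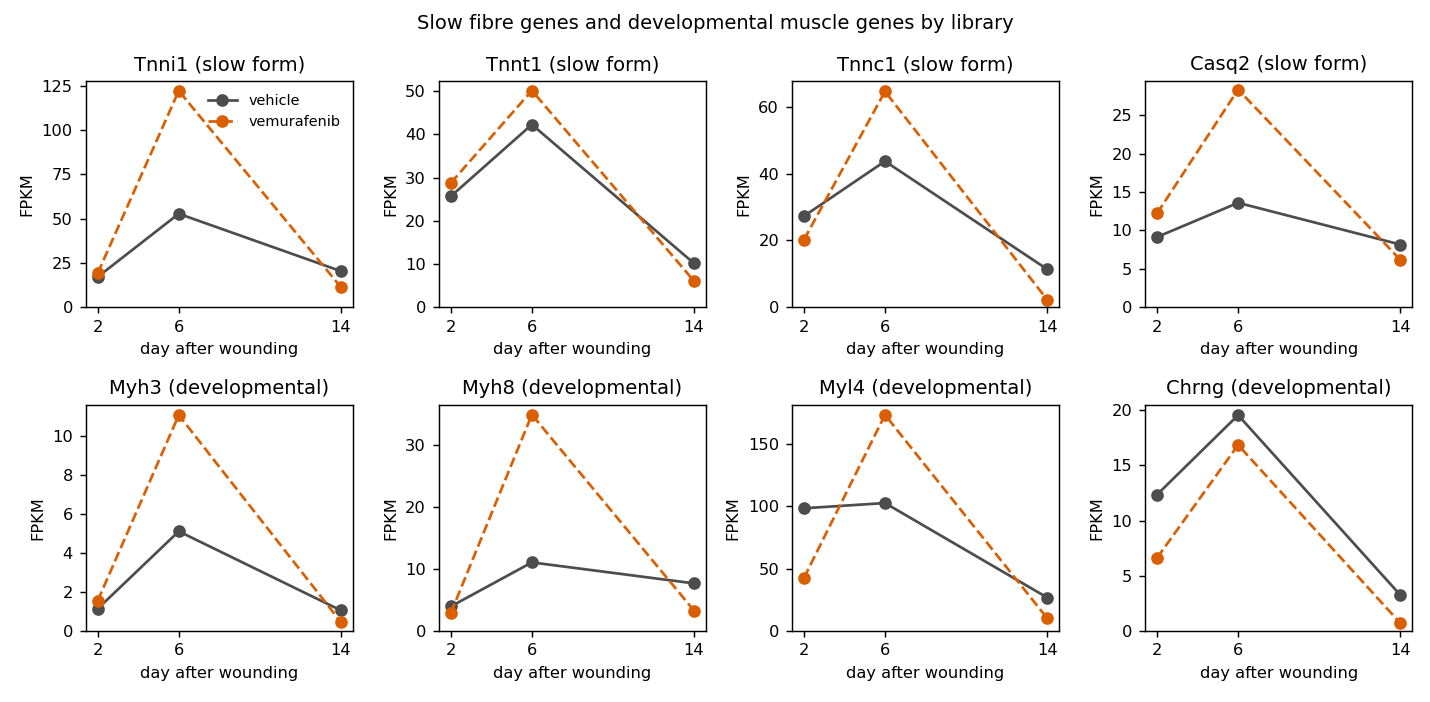
FPKM (linear axis, from 0) against day after wounding for 4 slow forms (Tnni1, Tnnt1, Tnnc1, Casq2) and 4 genes of developing muscle chosen after their values were seen (Myh3, Myh8, Myl4, Chrng), solid grey for vehicle and dashed orange for vemurafenib, each point 1 library. The genes shown are highest on day 6 in both arms and lower with vemurafenib on day 14, while Myod1, Myog, Myf6 and Cdh15 of the same list, not shown, were highest on day 2 in both arms.

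Fast and slow partners were also set against each other within each library. Fast troponin I stood at 191, 12.99 and 9.43 times slow troponin I (Tnni2 over Tnni1) on days 2, 6 and 14 with vehicle and at 145, 9.93 and 68.4 times with vemurafenib. Fast troponin T stood at 91.4, 15.7 and 19.7 times slow troponin T (Tnnt3 over Tnnt1) with vehicle and at 89.0, 26.0 and 112 times with vemurafenib. Fast troponin C stood at 224, 21.2 and 21.8 times slow troponin C (Tnnc2 over Tnnc1) with vehicle and at 223, 29.1 and 451 times with vemurafenib. In each of these pairs the ratio dropped between days 2 and 6 in both arms, and by day 14 it was high again with vemurafenib and much nearer its day 6 value with vehicle. Casq1 over Casq2 was 17.1, 4.85 and 3.34 with vehicle and 17.0, 7.45 and 14.5 with vemurafenib. Mybpc2 over Mybpc1 moved the least, at 0.97, 0.65 and 0.44 with vehicle and 1.14, 0.68 and 0.96 with vemurafenib. Summed fast over summed slow FPKM was 78.9, 24.6 and 24.3 with vehicle and 78.6, 29.4 and 81.5 with vemurafenib. The log2 ratio of the sums was higher with vemurafenib on 2 of the 3 days, by 0.66 ± 0.95 on average (SD over the 3 days), and the exact sign-flip permutation over the days gave two-sided p = 0.50, where the smallest p it allows is 0.25. The same exact test on single pairs gave p = 0.25 for Mybpc2 over Mybpc1, 1 for Tnni2 over Tnni1 and 0.50 for the other 3. With 3 days this test cannot pass 0.05, and the difference on day 14 by itself was not tested. The slow sum includes Mybpc1, which made up 147 of its 228 FPKM on day 2 with vehicle. Without Mybpc1, an alternative chosen after seeing the data, summed fast over summed slow was 223, 30.1 and 33.6 with vehicle. With vemurafenib it was 228, 38.5 and 197.

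**Figure D3:**
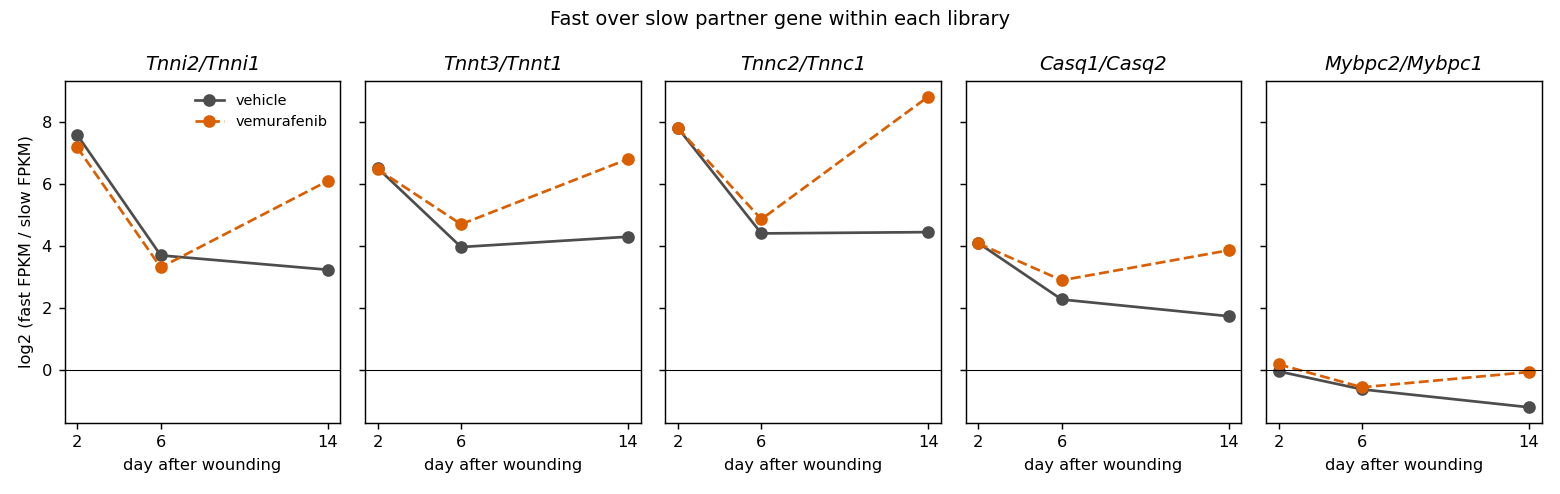
Log2 of the FPKM of the fast gene over the slow gene in the same library against day after wounding, for 5 partner pairs, solid grey for vehicle and dashed orange for vemurafenib, each point 1 library. The arms lie within 0.73 of each other on days 2 and 6 and further apart on day 14, where Tnnc2 over Tnnc1 is at 4.45 with vehicle and 8.82 with vemurafenib.

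The filament and Z-disc genes were led by Acta1, skeletal muscle actin, at 8877, 1525 and 715 FPKM with vehicle and at 9277, 3518 and 2096 FPKM with vemurafenib. Des, desmin, the intermediate filament around the Z-discs, was at 1404, 306 and 63.1 FPKM with vehicle and at 1323, 447 and 114 FPKM with vemurafenib. Tcap, telethonin, which caps titin at the Z-disc, was at 1223, 241 and 61.6 FPKM with vehicle and at 917, 347 and 280 FPKM with vemurafenib. Tcap was the gene of this group furthest apart between the arms on day 14, at 4.54-fold, although it had been at 0.75 of the vehicle level on day 2. Actn2, the Z-disc actinin that all fibre types share, was at 328, 37.7 and 19.8 FPKM with vehicle and at 207, 98.7 and 38.4 FPKM with vemurafenib. Of the others, Myoz1, a Z-disc protein of fast fibres that binds calcineurin, was 3.46-fold and 3.40-fold higher with vemurafenib on days 6 and 14. Myot, myotilin, was 2.53-fold and 2.09-fold higher on these days, and Smpx, a small protein of muscle fibres, 1.85-fold and 1.65-fold higher.

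The giant filament proteins had low FPKM throughout. Ttn, titin, the elastic filament from Z-disc to M-line, was at 8.48, 2.68 and 0.822 FPKM with vehicle and at 9.07, 3.88 and 2.03 FPKM with vemurafenib. Neb, nebulin, which runs along the thin filament, was at 17.4, 3.18 and 2.51 FPKM with vehicle and at 15.3, 5.80 and 2.33 FPKM with vemurafenib, which made it the only gene of this group that was not higher with vemurafenib on day 14. With the median of all tested genes set to 0, its day 14 log2 ratio changed from -0.10 to 0.01. Xirp2, an actin-binding protein, was at 20.9, 2.43 and 4.17 FPKM with vehicle and at 28.7, 6.36 and 4.66 FPKM with vemurafenib, and was the only gene of the 37 that was higher on day 14 than on day 6 in either arm, though with the libraries at the same total FPKM Myot was so too with vehicle, at a log2 ratio of 0.050.

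The calcium release genes had the smallest median ratio of the groups on day 6. Ryr1, the calcium release channel of the sarcoplasmic reticulum, was at 40.8, 9.33 and 3.20 FPKM with vehicle and at 36.5, 13.7 and 6.59 FPKM with vemurafenib. Cacna1s, the voltage sensor in the surface membrane that opens it, was at 20.6, 8.44 and 3.06 FPKM with vehicle and at 24.3, 11.5 and 4.13 FPKM with vemurafenib. Trdn, triadin, which anchors calsequestrin to the channel, was at 30.2, 13.1 and 6.29 FPKM with vehicle and at 47.1, 26.0 and 13.9 FPKM with vemurafenib. None of the 3 reached 2-fold on day 6, and Ryr1 and Trdn passed it on day 14, at 2.03-fold and 2.19-fold.

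Of the energy genes, Ckm, the muscle creatine kinase that regenerates ATP, had the largest day 14 ratio of all 37 genes. It was at 2191, 365 and 131 FPKM with vehicle and at 2270, 1003 and 631 FPKM with vemurafenib, or 1.04-fold, 2.75-fold and 4.82-fold higher. Eno3, the muscle enolase of glycolysis, was at 542, 157 and 55.7 FPKM with vehicle and at 600.0, 395 and 167 FPKM with vemurafenib. Pygm, the muscle phosphorylase that breaks down glycogen, was at 248.9, 53.1 and 17.0 FPKM with vehicle and at 233, 128 and 55.5 FPKM with vemurafenib. Ckmt2, the mitochondrial creatine kinase of muscle, had the largest day 6 ratio (3.79-fold) and the same ratio on day 14, and Ampd1, the AMP deaminase of muscle, was 2.38-fold and 2.33-fold higher.

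Mb, myoglobin, the oxygen-binding protein of oxidative fibres, went against its group. It was at 322, 391 and 206 FPKM with vehicle and at 421, 343 and 286 FPKM with vemurafenib, and was the only 1 of the 37 genes below the vehicle level on day 6. This direction did not hold with libraries rescaled to the same total FPKM, where the day 6 log2 ratio of Mb changed from -0.19 to 0.17. The median of all tested genes was then 0.40. Mb also changed sign with the total taken without the muscle genes. It stayed below vehicle with upper quartile scaling, without the 100 genes of highest mean and with the median of all tested genes set to 0. Mb varied by less over the 6 libraries than any other gene of its group, and it was the only 1 outside the slow forms that was highest on day 6 with vehicle.

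**Figure D4:**
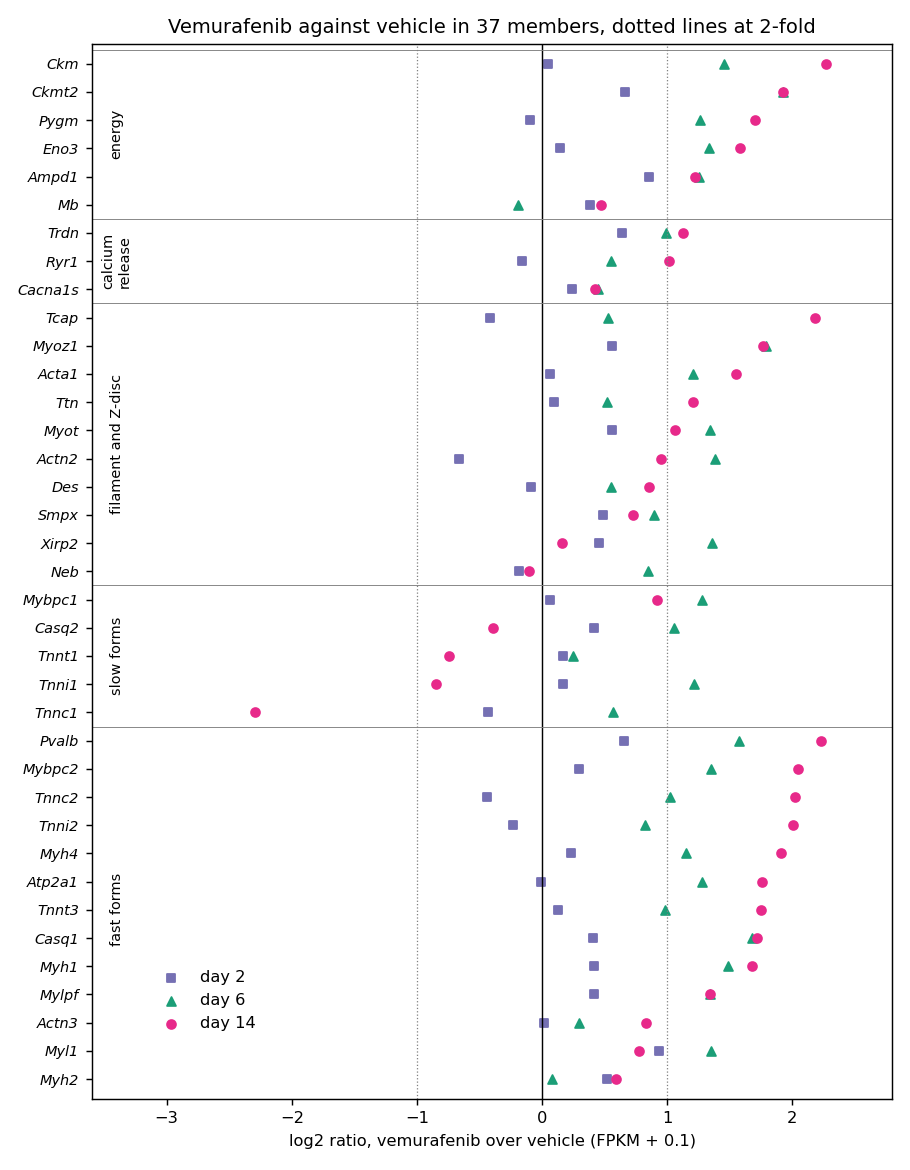
Log2 ratio of vemurafenib to vehicle (FPKM + 0.1) for the 37 muscle genes by role, with squares for day 2, triangles for day 6 and circles for day 14, each from 1 library per arm, and dotted lines at 2-fold. Day 2 points lie within 2-fold, days 6 and 14 lie to the right for most genes, and Tnni1, Tnnt1, Tnnc1 and Casq2 lie to the left on day 14.

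Counted over the 37 genes, the arms were close on day 2 and apart later. On day 2, 27 genes were higher with vemurafenib and 10 lower (49.8% and 49% of all tested genes). None was at least 2-fold apart, while 1.43% of all tested genes were at least 2-fold higher and 3.26% lower. The median log2 ratio was 0.17. On day 6, 36 genes were higher and 1 lower (54.5% and 45% of all tested genes), and 22 were at least 2-fold higher and 0 lower (5.29% and 5.03%), with a median log2 ratio of 1.21. On day 14, 32 were higher and 5 lower (42.4% and 57%), and 22 were at least 2-fold higher and 1 lower (3.64% and 7.66%), with a median of 1.21 again. By group, all 13 fast forms were higher on both days (9 and 10 of them by at least 2-fold, medians 1.28 and 1.75), while the 5 slow forms went from a median of 1.06, with 5 of 5 higher, to -0.74, with 4 of 5 lower. The medians on days 6 and 14 were 1.05 and 1.01 for the filament and Z-disc genes, 0.55 and 1.02 for calcium release and 1.30 and 1.64 for energy. Rescaling the libraries to the same total FPKM moved the median log2 ratio of all tested genes to 0.18, 0.40 and -0.25 on days 2, 6 and 14 and that of the muscle genes to 0.35, 1.57 and 1.09, with 32, 37 and 32 of the 37 higher.

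The limma fit of an arm effect common to the 3 days, which takes the way the arms differ from day to day as its error, gave a positive estimate for 35 of the 37 genes. The share of all tested genes with a positive estimate was not counted. None of the 37 genes passed the Benjamini-Hochberg adjustment, with adjusted p = 0.999965 for each (0% of all tested genes were called higher and 0.00747% lower). At an unadjusted p under 0.05, 19 were higher and 0 lower, against 1.19% and 1.07% of all tested genes. The largest of these estimates were Ckmt2, at 1.503 ± 0.31 (SE) on the log2 scale, and Pvalb, at 1.48 ± 0.36. Without day 2 the smallest adjusted p of the muscle genes by limma was 0.22, and 22 genes were higher at an unadjusted p under 0.05, against 2.48% of all tested genes in that fit. With each day left out in turn, this count was the highest, and that without day 14 was the lowest. Leaving out a day also leaves fewer libraries to estimate the error.

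Within each arm the muscle genes were lower at the later day. Between days 2 and 14, 34 of the 37 genes were at least 2-fold lower with vehicle, against 19.4% of all tested genes, and 33 with vemurafenib, against 14.3%. The median log2 ratio was -2.92 with vehicle and -1.93 with vemurafenib. The summed FPKM of the 40 genes was 10.9-fold lower on day 14 than on day 2 with vehicle and 3.85-fold lower with vemurafenib. By the median of the 37 genes, the first step, from day 2 to day 6, held most of the difference between the arms. In it, 29 genes were at least 2-fold lower with vehicle (11.8% of all tested genes) and 18 with vemurafenib (6.7%), with medians of -1.82 and -0.97. Over this step Tnni1 alone was at least 2-fold higher with vehicle (9.98% of all tested genes were), and Tnni1, Tnnc1 and Casq2 were with vemurafenib (9.43%). From day 6 to day 14 the counts at least 2-fold lower were 26 (10.1%) and 21 (14.6%), with medians of -1.37 and -1.15. Of the 5 slow forms, 4 went otherwise in the first step, being higher on day 6 in both arms, while Mybpc1 was lower. The medians of the 5 slow forms were 0.68 with vehicle and 1.21 with vemurafenib in that step. From day 6 to day 14 all 5 were lower in both arms. Their median was -1.37 with vehicle, the same as that of the 37 genes, and -3.04 with vemurafenib. The comparisons within an arm share libraries with each other and with those between the arms. With all libraries at the same total FPKM, 11 genes rather than 18 were at least 2-fold lower from day 2 to day 6 with vemurafenib. Under that scaling the median log2 ratio of all tested genes in this step was 0.24, and their share at least 2-fold lower was not counted.

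With the arms as blocks, the limma fit found 33 of the 37 genes lower on day 14 than on day 2 at an adjusted p under 0.05, against 10.2% of all tested genes. These were all 13 fast forms, all 10 filament and Z-disc genes, all 3 calcium release genes, 5 of the 6 energy genes and 2 of the 5 slow forms (Mybpc1 and Tnnt1). The largest drop was that of Myh4, by 4.90 ± 0.43 (SE) on the log2 scale, with adjusted p = 0.00079 by limma, and the next that of Des, which fell by 4.003 ± 0.36 with adjusted p = 0.00088 by limma. The 4 genes that did not pass were Tnni1 (log2 change -0.26 ± 0.48), Casq2 (-0.57 ± 0.38), Mb (-0.60 ± 0.33) and Tnnc1 (-2.19 ± 0.62), with limma's adjusted p between 0.058 and 0.75. Of the shorter intervals, 8 genes were lower on day 6 than on day 2 (1.81% of all tested genes), namely Myh1, Myh2, Mybpc2, Neb, Des, Myot, Xirp2 and Ryr1. From day 6 to day 14, 6 were lower (1.8% of all tested genes), namely Myh4, Actn3, Des, Cacna1s, Tnnt1 and Tnnc1. Without the filter on low values neither of these shorter intervals kept a muscle gene at an adjusted p under 0.05 in limma, with 28 and 20 at an unadjusted p under 0.05. The shares of all genes in that fit were not counted. The log2 difference of Tnni1 between days 2 and 6, 2.15 ± 0.48, had adjusted p = 0.063 by limma.

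Most other genes known from muscle fibres, listed with earlier results of these data known, followed the same course. Of 65 such genes, 63 passed the filter. On day 6, 60 of them were higher with vemurafenib, 31 by at least 2-fold (54.5% and 5.29% of all tested genes), with a median log2 ratio of 0.97. On day 14, 53 were higher and 23 at least 2-fold higher (42.4% and 3.64% of all tested genes), with a median of 0.80. The highest day 14 ratios were those of Dhrs7c, a short-chain dehydrogenase of the sarcoplasmic reticulum, at 1.74 and 9.64 FPKM, and Rpl3l, the ribosomal protein of striated muscle, at 4.03 and 21.1 FPKM. At the other end stood Ankrd2, a stretch-responsive gene richest in slow fibres, at 5.72 and 2.803 FPKM, and Atp2a2, the calcium pump of slow fibres, heart and many other cells, at 64.5 and 34.7 FPKM. On day 6, Mylk2, the myosin light chain kinase of skeletal muscle, had the lowest ratio, at a log2 value of -2.90.

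Most genes of satellite cells and regenerating fibres were, like most slow forms, higher with vemurafenib on day 6 and lower on day 14. Of 13 on the list, 10 passed the filter, and with vemurafenib 9 of the 10 were lower on day 2, 8 were higher on day 6 and all 10 were lower on day 14, 7 of them by at least 2-fold. Of all tested genes, 49% were lower on day 2, 54.5% higher on day 6 and 57% lower on day 14, 7.66% by at least 2-fold. Their median log2 ratio was -0.48, 0.33 and -1.14 on the 3 days. Myh8, the neonatal heavy chain, was at 3.92, 11.04 and 7.65 FPKM with vehicle and at 2.86, 34.9 and 3.25 FPKM with vemurafenib. Myh3, the embryonic heavy chain, was at 1.13, 5.10 and 1.05 FPKM with vehicle and at 1.54, 11.1 and 0.446 FPKM with vemurafenib. The days of the peak were not shared by the whole list. Myog, myogenin, the factor of differentiating myoblasts, was highest on day 2, at 128, 43.5 and 8.50 FPKM with vehicle and at 92.9, 47.3 and 4.06 FPKM with vemurafenib. Embryonic forms that heart and developing muscle share were also highest on day 6, with Actc1, cardiac actin, at 20.3, 39.0 and 24.3 FPKM with vehicle and at 25.1, 199 and 10.05 FPKM with vemurafenib. Myh6, the heart heavy chain, did not exceed 0.0186 FPKM in any library.

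Across the 6 libraries, 29 of the 37 genes correlated at Pearson's r of at least 0.9 with the mean log2 profile of the muscle genes. Each of the 37 is itself part of that mean, so a high r is partly built in. The values are a description over points that share their libraries. The lowest values were those of Tnni1 (0.13), Casq2 (0.41), Tnnc1 (0.45), Tnnt1 (0.60) and Mb (0.77). Among 9298 other genes whose mean reached 5 FPKM, 852 also reached 0.9, and the closest were Pfkm, the muscle phosphofructokinase, Tpm2, a tropomyosin, and Hspb3, a small heat shock protein, each at 0.997.

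The levels of other cell types moved between the same libraries. The summed FPKM of 7 keratinocyte markers was 17700, 28063 and 4820 with vehicle and 17390, 10014 and 4988 with vemurafenib. All 7 were at least 2-fold lower with vemurafenib on day 6 (5.03% of all tested genes were), the day on which 36 of the muscle genes were higher. All 6 macrophage markers and all 6 fibroblast markers were higher with vemurafenib on day 6 (54.5% of all tested genes were), with median log2 ratios of 1.08 and 0.43. All 6 fibroblast markers were lower on day 14 (57% of all tested genes were), at a median of -0.80, when the fast forms were higher. Of the 6 white adipocyte markers, whose fat lies against the skin muscle, 0 were higher with vemurafenib on day 6 and 5 were higher on day 14. Of all tested genes, 54.5% and 42.4% were higher on these days. The medians of the adipocyte markers were -0.30 and 0.61. The smooth muscle list summed to 115, 218 and 187 FPKM with vehicle and 91.7, 222 and 224 FPKM with vemurafenib. The part of tissue make-up in the values of the muscle genes was not tested.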

How the data were processed

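Poly(A) RNA from 6 wound samples was sequenced, and the authors deposited 1 table of FPKM. Per the study's methods, reads were aligned to mm9 with TopHat, and FPKM were computed with cuffquant (fragment bias and multi-read correction, compatible-hits normalization) and cuffnorm. TopHat2 and Cuffdiff also stand in the submitters' processing notes; versions were not given in the sources used here. The labels name single-end reads, the methods paired-end reads. Correcting for multi-mapped reads divides them between similar genes, which touches Myh1, Myh2 and Myh4.

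Of 23940 genes, 27 whose symbols had become dates were left out. Log2 ratios were taken after adding 0.1 FPKM, which understates changes of low genes, in the 13392 genes whose mean reached 1 FPKM. limma 3.58.1 in R 4.3.3 was fitted to all of them with day and arm as terms, the variance trended on the mean level and p-values adjusted by Benjamini-Hochberg over all tested genes, which leaves 2 residual degrees of freedom, after the fit had been tested on simulated data. Since each group is 1 sample, its p-values measure the spread between these samples only. Sample groups came from the labels. The genes and lists were chosen with earlier results of these data known. By the rule for named genes, values of all libraries are given for fast and slow partners above a mean of 1 FPKM, for up to 4 genes of highest mean in the other groups and for genes that went against their group; the rest named were chosen after their values were seen. Positions of genes are those of the mm9 annotation of GENCODE. Promoters are those of RefSeq (GRCm38.p6). Alternatives were other pseudocounts, filters, scalings, fold limits and limma settings. Python 3.11.15 with pandas 2.3.3, numpy 2.4.6, scipy 1.17.1 and matplotlib 3.10.9 was used.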

Additional observations from a re-analysis of the deposited data

Results flagged for a closer look

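Some muscle genes were higher with vemurafenib on day 6 and lower on day 14, or the reverse, in the single libraries of each arm, and these differences between days were not tested. The slow forms account for 4 of them. Tnni1 had a log2 ratio of 1.21 on day 6 and -0.85 on day 14. Tnnc1 went from 0.56 to -2.30. Casq2 went from 1.06 to -0.40, and Tnnt1 from 0.25 to -0.74. Among the filament genes, Neb went from 0.84 to -0.10. Mb had the opposite order, with -0.19 on day 6 and 0.47 on day 14, and its day 6 value changed sign when the libraries were rescaled to the same total FPKM.

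In a further 3 cases the step between days had opposite directions in the arms, again without a test of the difference. From day 2 to day 6, Casq1 had a log2 ratio of -1.24 with vehicle and 0.028 with vemurafenib. Mb had 0.28 with vehicle and -0.30 with vemurafenib over the same step. From day 6 to day 14, Xirp2 had 0.76 with vehicle and -0.44 with vemurafenib.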

How the results depend on the processing

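The sign-flip test paired the arms by day, and day or arm served as the block in the limma fits, each with 1 library per arm and day. The labels give the 6 libraries no replicate numbers by which to pair them further. Of 733 values recomputed under an alternative, 20 counts or ratios moved by over 1.5 times. A change of sign was counted only for log2 values of at least 1 in size, and none of those changed sign. Smaller values could change sign uncounted, as that of Mb did on day 6. Some of the 733 could not move at all, such as log2 ratios under another fold limit, so the tally is no measure of robustness. On day 2, the count of muscle genes at least 2-fold higher with vemurafenib was 2 with the same total FPKM, 2 with the same total taken without the muscle genes, 1 without the 100 genes of highest mean and 5 at a 1.5-fold limit, and at that limit 1 was lower. On day 14, 2 genes were lower without the filter on low values and 3 at 1.5-fold. Between days, 1 gene was higher from day 6 to day 14 with vehicle under the same total, under the total without the muscle genes and at 1.5-fold, 3 were higher from day 2 to day 6 with vehicle at 1.5-fold, and 11 were lower from day 2 to day 6 with vemurafenib under the same total. In limma, the genes lower from day 2 to day 6 numbered 0 without the filter (28 at an unadjusted p under 0.05), 2 without the trend and 4 without the arm in the model, and those lower from day 6 to day 14 numbered 0 without the filter (20 at an unadjusted p under 0.05) and 3 without the trend. For the arm effect, 0 genes passed in limma with each day left out in turn, with 4 (without day 14) to 22 (without day 2) higher at an unadjusted p under 0.05. Without Mybpc1, an alternative chosen after seeing the data, the log2 ratio of summed fast to slow forms was 7.80 and 7.83 on day 2 with vehicle and vemurafenib and 7.62 on day 14 with vemurafenib, and the arms differed by 2.55 on day 14. Apart from the limma fit without day 2, the share of all tested genes called was not counted under the alternatives. The counts of muscle genes under them therefore stand without that baseline. The depth of the libraries is unknown, so that no counting error can be given, and low values such as those of Myh7 and Myl2 carry no floor. The causes of these differences were not tested.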
